A study of Mus musculus with 6 samples.

Results

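The genes described here make or remove deoxynucleoside triphosphates (dNTPs), the building blocks of DNA. The 9 genes were Rrm1, Rrm2, Rrm2b, Tyms, Tk1, Dck, Dctd, Dut and Samhd1, out of 22180 genes that the array measured with a probe set of their own. The list itself was put together by pathway with earlier results of these arrays known, so every value below is a description of named genes. Within the list, the probe set that stands for a gene was chosen by its brightness, as the one with the highest mean log2 intensity over the 6 arrays. Each of the 9 genes had a probe set, and all 9 lay above the filter on dim genes. The members with a single probe set of their own numbered 7, and Rrm2 and Dut each had a dimmer one besides.

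The samples were BCR-ABL+ mouse B-ALL (B-cell acute lymphoblastic leukaemia) cultures, driven by the BCR-ABL fusion kinase, with 3 arrays of cells given vehicle (dimethyl sulphoxide, DMSO) and 3 arrays of cells given 312 nM dihydroartemisinin (DHA, the active metabolite of artemisinin antimalarials), both for 4 h. The growth protocol names p185+ and p185T315I+Arf-/- or p53-/- cells, and the labels do not say which of these the arrays hold, so whether the samples had p53 is not known here. Whether each sample was a culture of its own is not in the labels, and the spread behind the p-values may therefore be technical. Values are log2 intensities of probe sets, and a difference of 1 is a doubling; because probe sets differ in brightness, levels are compared between arrays and not between genes.

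Ribonucleotide reductase turns ribonucleotides into deoxyribonucleotides and sets the pace of dNTP supply. Its large subunit, encoded by Rrm1, holds the catalytic and regulatory sites and pairs with either of the small, iron-containing subunits encoded by Rrm2 and Rrm2b. Rrm2 serves replicating cells and its protein is destroyed at the end of the cell cycle, whereas Rrm2b, known as a target of p53, serves DNA repair and the upkeep of mitochondrial DNA in cells outside S phase. Thymidylate comes either from dUMP through thymidylate synthase (Tyms) or from salvaged thymidine through thymidine kinase (Tk1). Dctd and Dut supply and guard that dUMP pool, Dck salvages deoxycytidine and purine deoxynucleosides, and Samhd1 hydrolyses dNTPs.

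The arrays were alike in their overall distributions, with medians of 5.25 to 5.31 and Pearson correlations between pairs of arrays of 0.9925 to 0.9947. The processing of the deposited values equalises arrays, so the alike distributions do not tell how alike the samples were. All 15 measured markers of B-cell precursors lay above the filter, whereas 7 of 12 markers of T and NK cells and 5 of 12 myeloid markers lay under it. However, 5 of 6 measured erythroid and megakaryocyte markers and 8 of 10 stromal and endothelial markers also lay above it. Passing the filter is thus no mark of the cell type. The mean level of the tested markers of T and NK cells overlapped between the groups, at 6.03 to 6.06 with vehicle and 6.02 to 6.12 with DHA. For myeloid cells it was 5.49 to 5.57 and 5.49 to 5.58, also overlapping. For erythroid and megakaryocyte markers it was 5.29 to 5.31 with vehicle and 5.35 to 5.37 with DHA, and for stromal and endothelial markers 5.78 to 5.82 and 5.82 to 5.91, so these small sets of mostly dim markers lay higher on the DHA arrays. No marker of another cell type was called. Nkg7 and Pecam1, higher by 0.18 each, had all DHA arrays above all vehicle arrays (limma adjusted p of 0.354 and 0.220), and 0 had all below. The part of these markers in the results below was not tested. In a bulk sample, a change in the share of cells that hold an RNA and a change in RNA per cell cannot be told apart.

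Of the 9 genes, Rrm2b differed most between the groups. Its log2 intensity was 7.87, 7.96 and 7.85 on the vehicle arrays and 8.83, 8.47 and 8.72 on the DHA arrays. Every DHA array lay above every vehicle array, and DHA replicate 2 was the nearest of them to vehicle. The mean went from 7.90 ± 0.059 to 8.67 ± 0.18 (SD, n = 3 per group), a log2 fold change of 0.77 (SE 0.094, 95% interval 0.55 to 1.00). On the linear scale this was 1.71-fold (95% interval 1.47 to 2.00). The difference did not reach the threshold of the test across all 15526 tested genes (limma adjusted p = 0.0636), where Rrm2b stood at rank 19 by p and rank 27 by the size of its change. Permuting the 6 values exactly (two-sided) gave p = 0.1, the smallest that 3 arrays against 3 allow. The adjusted p fell on either side of 0.05 with the settings: it was under it in 6 of 19 alternatives, among them without DHA replicate 2 (log2 fold change 0.87, limma adjusted p = 0.0319), and ranged from 0.0245 to 0.351.

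The partner subunit and the other small subunit differed far less. Rrm1 read 11.43, 11.53 and 11.45 with vehicle and 11.39, 11.41 and 11.41 with DHA. The groups did not overlap, but the lowest vehicle array and the highest DHA array were only about as far apart as the DHA arrays among themselves, and DHA minus vehicle came to -0.065 (SE 0.047; limma adjusted p = 0.631). Rrm2 read 11.13, 11.18 and 11.25 with vehicle and 11.10, 11.14 and 11.13 with DHA. The groups overlapped, and DHA minus vehicle came to -0.062 on the log2 scale (SE 0.050, 95% interval -0.18 to 0.056; limma adjusted p = 0.664). Its dimmer probe set measured 5.53 ± 0.072 and 5.50 ± 0.21 (SD, n = 3 per group), a difference of -0.031.

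**Figure D1:**
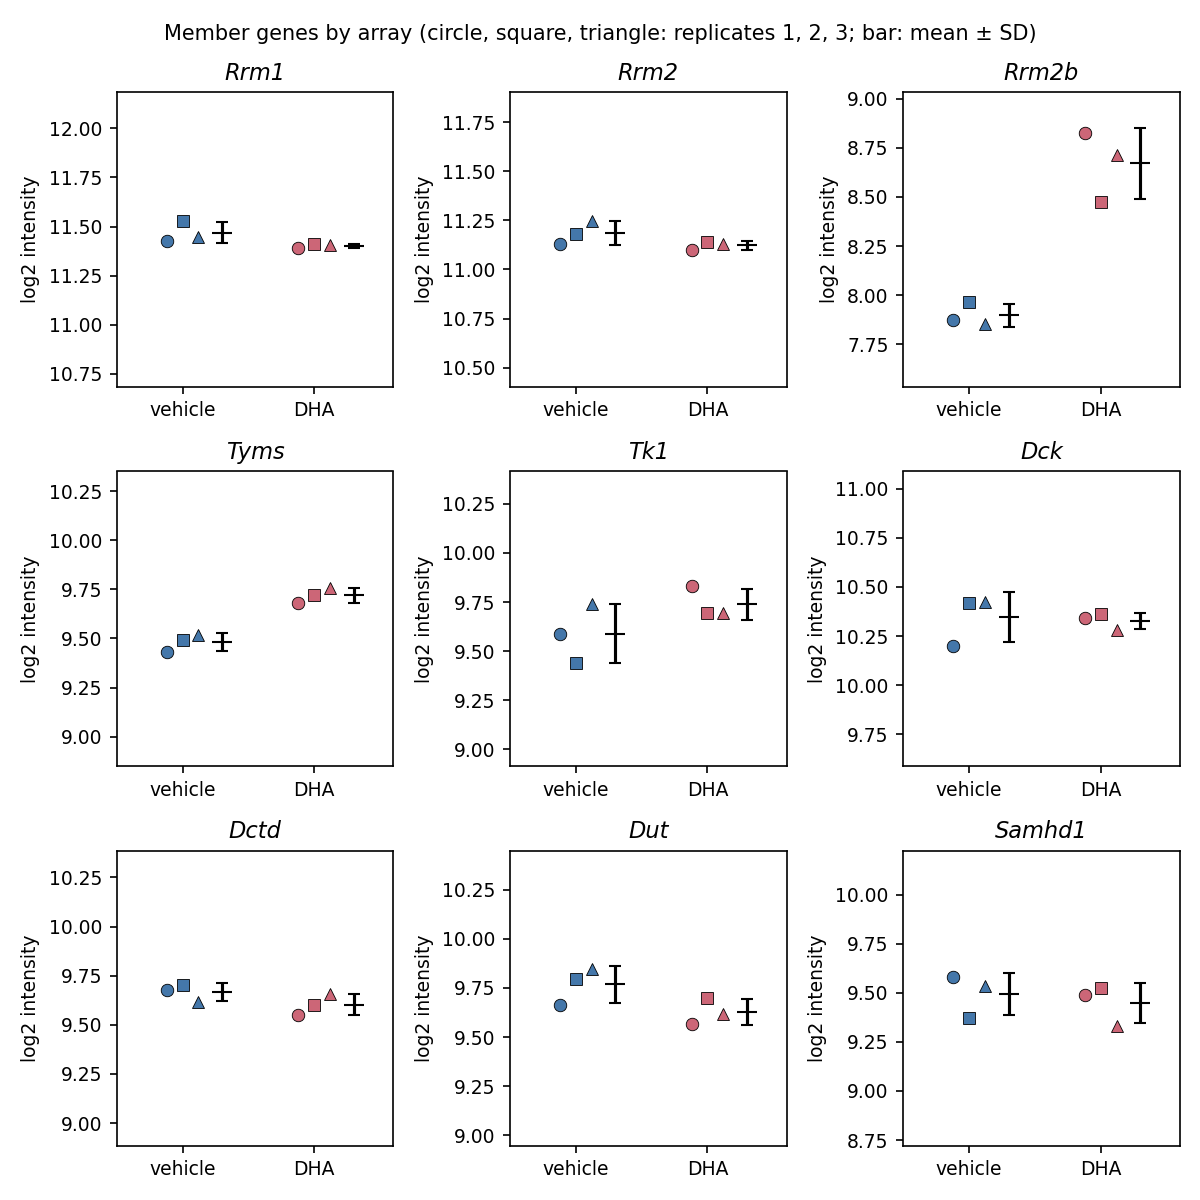
Log2 intensity of the 9 genes on each array, vehicle in blue and DHA in red, with the mean and SD beside the points. Every panel spans the same height, so that the step in Rrm2b (7.90 to 8.67) can be set against the smaller one in Tyms (9.48 to 9.72) and the near-level values of Rrm1 and Rrm2.

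The balance between the subunit RNAs was read as the difference of their log2 values on each array, of which only the shift between groups has meaning. Rrm2b minus Rrm2 was -3.25, -3.21 and -3.40 with vehicle and -2.27, -2.67 and -2.41 with DHA. The groups were separate and the difference was larger by 0.84 with DHA. Rrm2b minus Rrm1 was larger by 0.84 as well, and its vehicle arrays lay close together, at -3.57 ± 0.021 (SD, n = 3), against -2.73 ± 0.19 with DHA. Rrm2 minus Rrm1, by contrast, was -0.28 in both groups (SD 0.077 with vehicle and 0.012 with DHA), and shifted by 0.0029. On these arrays the RNA of the small subunit used outside S phase was thus higher with DHA relative to those of the other subunits, while the ratio of Rrm2 to Rrm1 shifted by less than the spread of the vehicle arrays. Both shifts of 0.84 carry the change of Rrm2b, which did not pass the test, and add no support to it.

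The promoter windows of Rrm1 and Rrm2, the pair whose ratio shifted least of the 5 pairs compared, and of Tyms, the other gene whose DHA arrays all lay above the vehicle arrays, are shown here from RefSeq (build GRCm38.p6), each from 250 bases before to 50 bases after the annotated start. Rrm1 lies on the plus strand at chr7:102441445-102441744, Rrm2 on the plus strand at chr12:24708004-24708303 and Tyms on the minus strand at chr5:30073576-30073875. Capitals mark the letters CCAAT, read on both strands.
Rrm1: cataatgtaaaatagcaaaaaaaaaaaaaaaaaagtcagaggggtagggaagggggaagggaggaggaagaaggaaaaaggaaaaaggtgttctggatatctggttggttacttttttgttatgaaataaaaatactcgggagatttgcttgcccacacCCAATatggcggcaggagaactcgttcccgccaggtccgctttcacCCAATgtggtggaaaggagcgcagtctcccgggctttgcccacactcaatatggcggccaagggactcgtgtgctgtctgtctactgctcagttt
Rrm2: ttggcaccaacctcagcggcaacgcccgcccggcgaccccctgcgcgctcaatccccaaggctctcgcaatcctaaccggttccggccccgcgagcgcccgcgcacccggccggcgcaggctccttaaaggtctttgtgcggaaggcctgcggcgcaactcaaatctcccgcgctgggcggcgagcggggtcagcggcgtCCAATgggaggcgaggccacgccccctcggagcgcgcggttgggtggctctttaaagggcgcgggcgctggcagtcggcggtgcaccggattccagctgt
Tyms: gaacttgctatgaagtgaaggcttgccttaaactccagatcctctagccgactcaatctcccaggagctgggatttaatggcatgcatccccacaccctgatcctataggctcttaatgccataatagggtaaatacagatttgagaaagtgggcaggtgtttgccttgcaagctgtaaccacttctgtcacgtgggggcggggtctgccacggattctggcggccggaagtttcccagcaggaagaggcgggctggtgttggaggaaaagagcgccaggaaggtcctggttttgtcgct

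Of the 9 genes, 8 had a window in the RefSeq table, 10 windows in all, and Rrm2b did not match. CCAAT began at positions -91 and -45 from the start of Rrm1 and at -50 from that of Rrm2, and also stood in 2 of the 3 windows of Dctd, which overlap each other. It was present in 37.4% of all 32851 windows of that length. The letters TTTGGCGC, TTTCCCGC, TTTCGCGC and TTTGCCGC, forms of the element bound by E2F factors, and TGATGNAA, the form of the amino acid response element bound by ATF4 and CHOP, were searched on both strands and stood in none of the 10 windows. Any of the first 4 was present in 2.26% of all windows and the last in 3.97%. Only these exact letters were searched for, so other forms of either element may stand in the windows. These are matches of letters, with no bearing on binding.

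Among the enzymes of thymidylate supply, Tyms was higher with DHA. Its values were 9.43, 9.49 and 9.52 with vehicle and 9.68, 9.72 and 9.76 with DHA. The groups did not overlap, and the replicates of each group lay within about 0.1 of each other. The mean was higher by 0.24 on the log2 scale (SE 0.049, 95% interval 0.12 to 0.36), or 1.18-fold, which did not pass the test across all genes (limma adjusted p = 0.141; exact permutation p = 0.1, the smallest possible). A further, dim probe set that the annotation pairs with both Tyms and a Tyms pseudogene was not used for the gene. It read 4.54, 4.38 and 4.47 with vehicle and 4.59, 4.62 and 4.77 with DHA, also without overlap, at a level close to the filter of 4.52.

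Tk1, the cytosolic thymidine kinase of S phase, read 9.59, 9.44 and 9.74 with vehicle and 9.83, 9.69 and 9.70 with DHA. Vehicle replicate 3 lay above DHA replicates 2 and 3, and the vehicle arrays had the widest spread of the 9 genes (SD 0.15). DHA minus vehicle came to 0.15 on the log2 scale (SE 0.086; limma adjusted p = 0.535). Dctd, which deaminates dCMP to the dUMP used by thymidylate synthase, read 9.68, 9.71 and 9.62 with vehicle and 9.55, 9.60 and 9.66 with DHA. Its groups overlapped, and the difference was -0.063 on the log2 scale (limma adjusted p = 0.666).

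Dut encodes the dUTPase that keeps uracil out of DNA and returns dUMP for thymidylate synthesis. It read 9.66, 9.80 and 9.84 with vehicle and 9.57, 9.70 and 9.62 with DHA. The groups overlapped only through vehicle replicate 1, which lay below DHA replicate 2, and DHA minus vehicle was -0.14 on the log2 scale (SE 0.065, with a 95% interval of -0.30 to 0.013, at a limma adjusted p = 0.457). The dimmer Dut probe set gave -0.068, at 5.66 ± 0.070 and 5.59 ± 0.084 (SD, n = 3 per group). Tyms and Dut, neighbouring steps of thymidylate supply, thus lay on opposite sides of 0, neither past the test.

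The remaining salvage kinase and the dNTP hydrolase lay close between the groups. Dck read 10.20, 10.42 and 10.42 with vehicle and 10.34, 10.36 and 10.28 with DHA, so the DHA arrays lay inside the range of the vehicle arrays. The difference between the groups was -0.020 on the log2 scale, with a 95% interval of -0.19 to 0.15 (limma adjusted p = 0.936). Tk1 minus Dck shifted by 0.17 with overlapping groups. Samhd1 read 9.58, 9.37 and 9.53 with vehicle and 9.49, 9.52 and 9.33 with DHA, a difference of -0.045 on the log2 scale (SE 0.078; limma adjusted p = 0.852). Samhd1 minus Rrm1, the degrading enzyme set against the subunit common to both forms of the reductase, shifted by 0.020 and also overlapped.

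**Figure D2:**
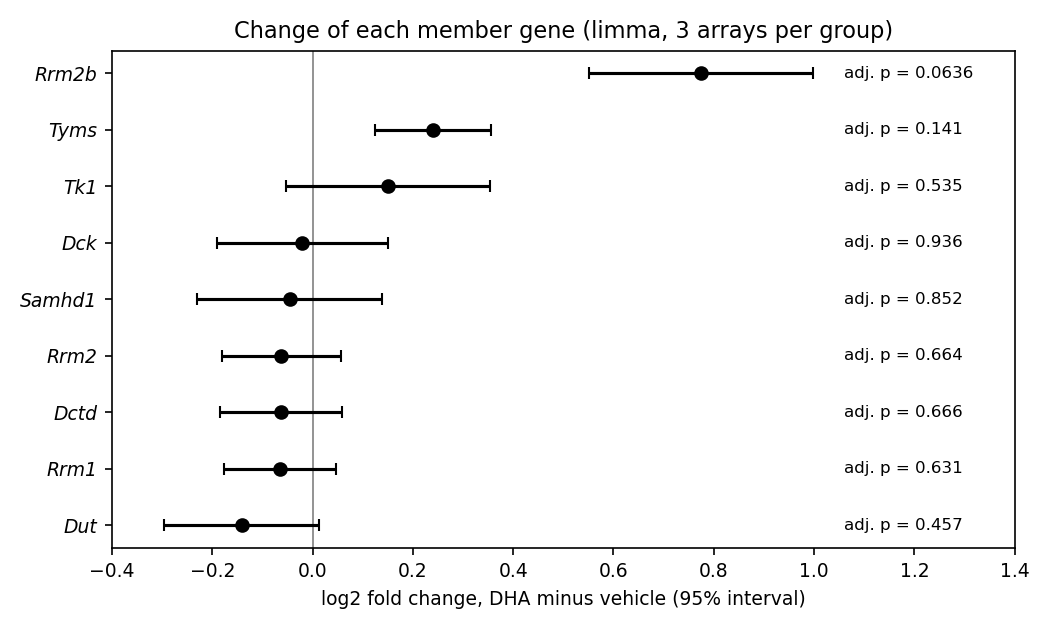
Log2 fold change of each gene (DHA minus vehicle, points) with its 95% interval from limma (bars) and the adjusted p over all tested genes at the right. The intervals of Rrm2b (0.55 to 1.00) and Tyms (0.12 to 0.36) lie above 0, those of the other 7 genes include it, and no adjusted p is at or under 0.05.

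In all, 0 of the 9 genes were called at a limma adjusted p at or under 0.05 (2 at an unadjusted p under 0.05, both higher). Across all tested genes 0.0837% were called higher and 0.00644% lower. At an unadjusted p under 0.05, 5.94% of all tested genes were higher and 6.08% lower. The groups did not overlap for 2 members that were higher, Rrm2b and Tyms, and for 1 that was lower, Rrm1, against 7.64% and 8.19% of all tested genes. With 9 genes picked with results known, these counts carry no weight beyond describing the genes. The median log2 fold change of the 9 was -0.045, beside 0.0027 over all tested genes. For the 7 genes other than Rrm2b and Tyms, changes lay between -0.14 and 0.15, and the widest limits of their 95% intervals were 0.81-fold and 1.28-fold.

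Some arrays were often the lowest or the highest of their group. Vehicle replicate 1 was the lowest vehicle array for 5 of the 9 genes (Rrm1, Rrm2, Tyms, Dck and Dut), and vehicle replicate 3 was the highest for 5 (Rrm2, Tyms, Tk1, Dck and Dut). DHA replicate 1 was the lowest DHA array for Rrm1, Rrm2, Tyms, Dctd and Dut, and DHA replicate 2 the highest for Rrm1, Rrm2, Dck, Dut and Samhd1. The SD was smaller with DHA than with vehicle for 7 of the 9 genes and larger for Rrm2b and Dctd. Values of one array share its RNA, labelling and scaling, so the genes are no independent witnesses of this.

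Each sample title holds a number that the labels do not explain. Its first digit is 2 for vehicle replicates 1 and 2 and DHA replicate 1, and 4 for vehicle replicate 3 and DHA replicates 2 and 3, and whether it marks a batch is unknown. Rrm2b was higher with DHA by 0.91 among the samples with 2 and by 0.74 among those with 4, and by 0.82 with the digit as a term in the fit (limma adjusted p = 0.0634). Tyms was higher by 0.22 in both, and Dut was lower by similar amounts (-0.16 and -0.19). Rrm1 (-0.088 and -0.037) and Rrm2 (-0.056 and -0.11) were slightly lower in both. Tk1 differed most, at 0.32 among samples with 2 and -0.046 among those with 4, and Dctd (-0.14 and 0.012), Dck (0.030 and -0.10) and Samhd1 (0.015 and -0.10) also changed sign. Each of these within-digit values sets 1 array against 2.

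The 5 tested genes whose pattern over the 6 arrays was nearest to that of Rrm2b were found by the root mean square difference of values centred on each gene's mean. They were 5430416N02Rik (0.055), 2410006H16Rik (0.078), Mthfd2 (0.079), Arrdc3 (0.079) and Cldn12 (0.080), where the root mean square of the centred Rrm2b values was 0.40. Mthfd2, an enzyme of mitochondrial folate metabolism, read 10.32, 10.37 and 10.22 with vehicle and 11.05, 10.87 and 11.00 with DHA. It rose by 0.67 and was the only one of the 5 past the test (limma adjusted p = 0.0379). That call was lost, with 0 genes called in all, on leaving out any array except DHA replicate 2. Arrdc3, an arrestin-like adaptor, was higher by 0.63 on the log2 scale, and the tight junction gene Cldn12 had 0.71 (limma adjusted p of 0.0636 and 0.0643). In each of the 5, as in Rrm2b, DHA replicate 2 was the lowest of the DHA arrays. The genes were picked for likeness to Rrm2b on these same arrays, so this shared trait and the shared step follow from the choice. Likeness over 6 arrays in 2 groups is a description of these arrays alone.

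**Figure D3:**
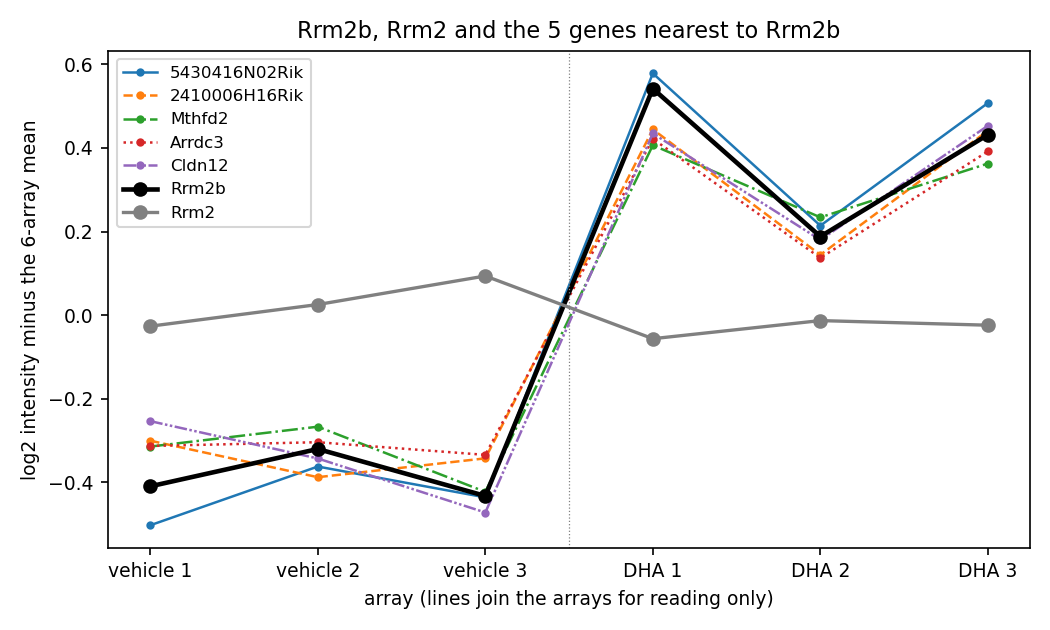
Log2 intensity minus the mean over the 6 arrays for Rrm2b (black), Rrm2 (grey) and the 5 tested genes nearest to Rrm2b (thin lines), by array. Rrm2b and its 5 neighbours share the step between the groups and the low DHA replicate 2. The neighbours were picked by this likeness. Rrm2 stays near 0 on every array.

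The wider machinery of dNTP handling held other genes of the same size of change as Tyms. Of 20 listed kinases, mitochondrial salvage enzymes and dNTP-clearing enzymes, 15 were tested, 6 were higher and 9 lower, and 0 were called. The groups did not overlap for 4 that were higher (26.7% of the 15, against 7.64% of all tested genes) and 2 that were lower (13.3% against 8.19%), and the median log2 fold change was -0.027. Tk2, the mitochondrial thymidine kinase, read 8.20, 7.94 and 8.01 with vehicle and 8.54, 8.25 and 8.33 with DHA. Its DHA arrays all lay above the vehicle arrays, by 0.33 on the log2 scale in the mean (SE 0.098; limma adjusted p = 0.273). Nt5m, the mitochondrial deoxynucleotidase, had 0.28 (SE 0.097; limma adjusted p = 0.335), and Dctpp1, which clears modified dCTP, had -0.28 (SE 0.073; limma adjusted p = 0.223).

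Listed partners and reductants of ribonucleotide reductase were mostly lower. Of 10 listed, 8 were tested, 7 were lower and 1 higher, and the median of their log2 fold changes was -0.090, with 0 called. The groups did not overlap for 3 that were lower (37.5% of the 8, against 8.19% of all tested genes) and 0 that were higher. Glutaredoxin (Glrx), which can hand electrons to the reductase, read 9.36, 9.43 and 9.46 with vehicle and 8.95, 9.20 and 8.98 with DHA. All its DHA arrays lay below the vehicle arrays, by -0.38 on the log2 scale in the mean (SE 0.076; limma adjusted p = 0.140). Thioredoxin reductase (Txnrd1), of the other electron route, had -0.32 (limma adjusted p = 0.372) with overlapping groups. Fzr1, the ubiquitin ligase activator that marks the Rrm2 protein for destruction, had -0.18 (limma adjusted p = 0.337), with all DHA arrays below the vehicle arrays.

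Ribonucleotide synthesis and salvage, which feed the reductase, leaned the same way. Of 13 tested pyrimidine genes 10 were lower (median -0.080), and of 16 tested purine genes 13 were lower (median -0.097), with 0 called in either list and 7572 of the 15526 tested genes lower in all. The groups did not overlap for 3 pyrimidine genes (23.1%) and 5 purine genes (31.2%), all lower, against 8.19% of all tested genes. The lists are not separate: Cmpk1, Nt5c3 and Cda, all lower, also stand in the list of kinases, mitochondrial salvage and dNTP-clearing enzymes above. In the pyrimidine list the smallest p belonged to Uck2 (-0.096), Cmpk1 (-0.22) and Ctps2 (-0.088), with limma adjusted p of 0.474, 0.492 and 0.504. In the purine list it belonged to Aprt (-0.16), Gart (-0.21) and Ada (-0.20), with limma adjusted p of 0.371, 0.376 and 0.380. Gart catalyses several steps of purine synthesis, and Aprt and Ada belong to salvage.

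Cell cycle genes are given because RNAs such as Rrm2, Tyms and Tk1 follow the cycle. Of 28 tested S phase genes 17 were higher, beside 51.2% of all tested genes, with a median of 0.033 and 0 called. The groups did not overlap for 4 that were higher (14.3% of the 28, against 7.64% of all tested genes) and 0 that were lower. Cdt1, a licensing factor, was higher by 0.39 on the log2 scale (SE 0.053; limma adjusted p = 0.0660), Pole, the leading strand polymerase, 0.13 and the flap nuclease Fen1 -0.14 (limma adjusted p of 0.438 and 0.439). Of 19 tested genes of G2 and M phase 15 were lower, with a median of -0.15 and 0 called. The groups did not overlap for 11 of them (57.9% of the 19, against 8.19% of all tested genes). Kif2c (-0.26), Prc1 (-0.46) and Plk1 (-0.25), of the mitotic spindle and its kinases, had limma adjusted p of 0.150, 0.155 and 0.160. The part of cycle phase in the values of the 9 genes was not tested.

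Known p53 targets, of which Rrm2b is one, lay on both sides of 0. Of 30 listed 23 were tested, 12 were higher and 11 lower, with a median of 0.0091, and 1 was called. Sesn2, a brake on mTORC1 that also answers to amino acid stress, rose by 1.86 (limma adjusted p = 0.0234), a call that was also lost on leaving out any array except DHA replicate 2. Ddit4, another inhibitor of mTORC1, had 0.98 (limma adjusted p = 0.141) and Sesn1 -0.32 (limma adjusted p = 0.172). Groups did not overlap for 5 that were higher (21.7% of the 23, against 7.64% of all tested genes) and 7 that were lower (30.4% against 8.19%). Further targets, on both sides of 0, are named here after their values were seen. The kinase gene Plk3 had 0.27, Pmaip1, which encodes the pro-apoptotic protein NOXA, 0.21 and the repair polymerase gene Polk 0.13, with all DHA arrays higher (limma adjusted p of 0.195, 0.270 and 0.342). The cell cycle inhibitor Cdkn1a read 9.48, 9.23 and 9.34 with vehicle and 8.99, 9.18 and 9.09 with DHA, all lower, at -0.26 (limma adjusted p = 0.288). Ccng1 had -0.16 and Phlda3 -0.18, also without overlap (limma adjusted p of 0.279 and 0.315). Gtse1 (-0.30), Ei24 (-0.16) and Trp53i11 (-0.076) had all DHA arrays lower as well (limma adjusted p of 0.196, 0.298 and 0.562). Mdm2, the ubiquitin ligase for p53, had -0.031 (limma adjusted p = 0.904).

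**Figure D4:**
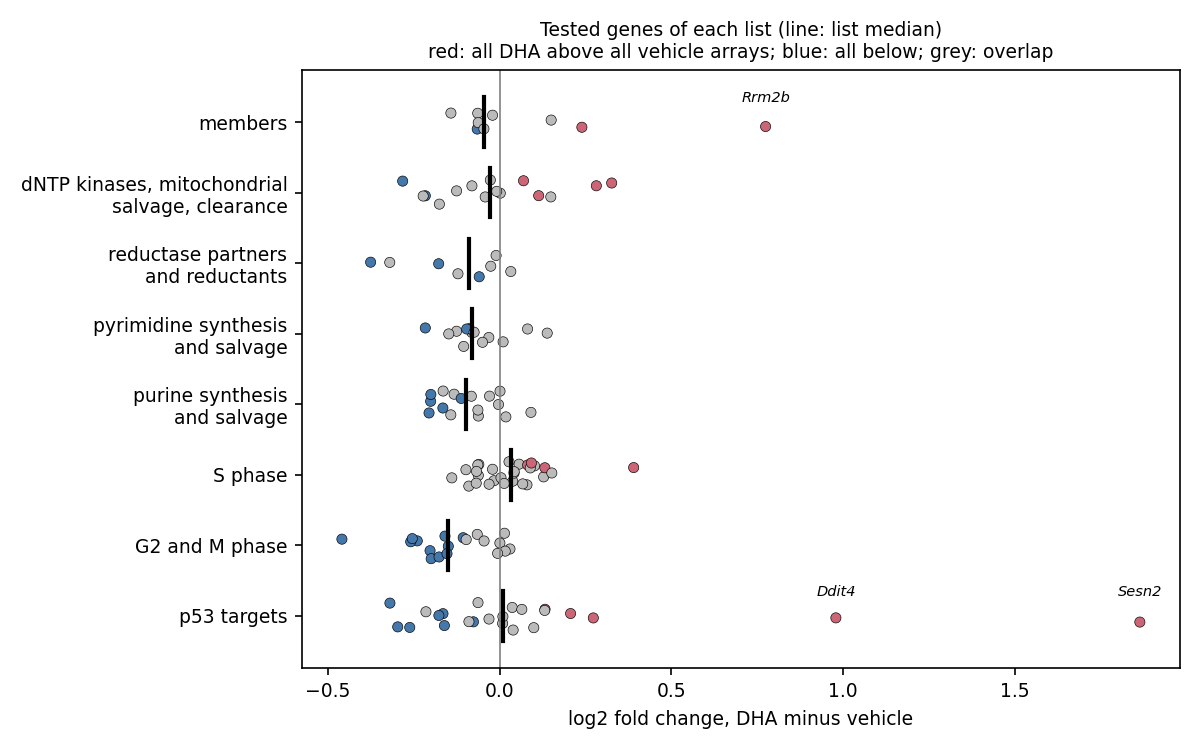
Log2 fold change (DHA minus vehicle) of each tested gene in the 9-gene list (top row) and 7 related lists, with the list median as a line. Red points have all DHA arrays above all vehicle arrays, blue points all below, and grey points overlap; Rrm2b (0.77), Ddit4 (0.98) and Sesn2 (1.86) stand apart, and the G2 and M phase row lies to the left (median -0.15).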

How the data were processed

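Biotin-labelled cRNA from 6 samples was hybridised to Affymetrix arrays, per the labels' protocols. Each deposited value is the log2 intensity of a probe set in a sample, which the authors made with RMA and Partek 6.6, per the submitters' processing notes (settings not stated). RMA subtracts background and equalises arrays, which can understate differences of dim genes, and the number of arrays limits the precision. All 41345 probe sets had values on all arrays.

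Samples were grouped by the agent in the labels, with replicates numbered in accession order. The extraction protocol also mentions another time, and 4 h is that of the treatment protocol. Probe set names came from the platform annotation, updated by Entrez identifier to RefSeq (GRCm38.p6). It gave 1 symbol for 23521, several for 1814 and none for 16010, and 23328 of the first matched RefSeq. Per gene the brightest single-gene probe set was used, and dim genes, with a mean below the 30th percentile (4.52), were dropped, leaving 15526.

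Groups were compared in R 4.3.3 with limma 3.58.1 (default empirical Bayes moderation, two-sided, Benjamini-Hochberg over all tested genes, called at 0.05). Intervals are limma's 95% confidence intervals, not adjusted for the number of genes. Single values were also tested with an exact permutation test. The fit was also run on simulated data with independent normal noise for each gene. Such data lack the values shared between arrays that are described below, so the run does not cover that trait.

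The members and gene lists were chosen with earlier results of these data known. All 9 members were named, with the 3 genes of smallest p in each related list, called genes and the 5 genes nearest to Rrm2b. Alternatives were leaving out each array, other filters, scalings, probe set choices, variance models and thresholds, and terms for the numbers in the sample titles.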

Additional observations from a re-analysis of the deposited data

How the results depend on the processing

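No paired analysis was possible because the titles of the groups share only 1 number, on vehicle replicate 3 and DHA replicate 2. The members called, 0, became 1 (Rrm2b, higher) with the 50th percentile filter, median centring, quantile normalization, trend and robust moderation, an adjusted p of 0.1 and a term for the shared title number, and ranged from 0 to 1 on leaving out an array. The genes called in all, 14, ranged from 0 to 24 on leaving out an array: it was 24 without DHA replicate 2 and 0 without any other, with 1356 to 1710 genes at an unadjusted p under 0.05. It was 62 with the 50th percentile filter and 5 with no filter, 52 with median centring (41 up), 63 after quantile normalization (52 up), 62 with trend and robust moderation, 1 with no moderation, 80 at an adjusted p of 0.1, 41 with the title number term and 0 without both samples of that number (1569 at an unadjusted p under 0.05). The genes called in the related lists, 1, ranged from 0 to 1 on leaving out an array (26 to 38 at an unadjusted p under 0.05 where it was 0). It was 2 with the 50th percentile filter, quantile normalization, trend and robust moderation and an adjusted p of 0.1, and 0 with no moderation (35 at an unadjusted p under 0.05) and without both samples of the shared number (32). Fewer arrays or genes are part of some of these settings, and otherwise the cause was not tested.

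The Rrm2b change ranged from 0.70 to 0.91 over its 21 alternatives and that of Tyms from 0.21 to 0.26, and Tyms passed the test in 0 of 19 (adjusted p 0.0942 to 0.389). Signs of 5 members held throughout, and those of 4 did not. On leaving out an array Dck ranged from -0.094 to 0.017 and Samhd1 from -0.11 to 0.013. Without both samples of the shared number Dck was 0.00065. Within title numbers starting with 2 Dck was 0.030 and Samhd1 0.015, and within those starting with 4 Tk1 was -0.046 and Dctd 0.012. The 5 differences between member pairs moved by no more than 1 SD, pooled over both groups, in 50 of 50 alternatives. Most of these could not have come out otherwise, so the count says little about stability. With 3 arrays per group, leaving out 1 array cannot move such a difference by more than that SD. Median centring cancels in a difference within an array, and another probe set can only move the pairs with Rrm2.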

Other observations

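Exactly equal values on different arrays were common. Of the 15526 tested genes, 5466 (35.2%) had at least 1 value that was the same to every printed digit on several of the 6 arrays. In 252 genes the 3 vehicle arrays were identical, and in 277 the 3 DHA arrays, so that the spread of that group was 0. None of the 9 genes of dNTP supply had a shared value. Among related genes, Cmpk1, which phosphorylates CMP, UMP and dCMP, read 8.85 on vehicle replicates 1 and 3, and Ada read 8.92 on the same pair. Mdm2 read 8.74 on DHA replicates 1 and 3. These genes were chosen after their values were seen, and the effect of shared values on the tests was not tested.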
